A study of Rattus norvegicus with 9 samples.

Results

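A set of 10 imprinted genes that act on fetal growth, other than Igf2 and H19, was followed across the lungs of fetal rats: Dlk1, Meg3, Cdkn1c, Peg3, Mest, Grb10, Plagl1, Ndn, Peg10 and Phlda2. They were chosen by name for their known roles, with earlier results of these data known. They were found by matching rat symbols to the NCBI Gene IDs of the count table. Of the 10 genes, 9 had a matched row among 17465 genes, and all 9 passed the filter on low counts that left 12966 genes for testing. Peg10 was not analysed here.

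The study sequenced RNA left after ribosomal RNA depletion from 9 fetal lungs of Sprague-Dawley rats, 3 in each of 3 groups. Control lungs and hypoplastic lungs (lungs that stay too small, here with oligohydramnios, a shortage of amniotic fluid, named in the series title) had no treatment. The lungs of the remaining group were hypoplastic too and received AFSC-EVs, extracellular vesicles shed by amniotic fluid stem cells. The comparisons ask how hypoplastic lungs differ from control lungs, and how treated lungs differ from untreated hypoplastic lungs and from controls. No genotype, allele or transgene is named in the labels, and all 3 groups share the strain and the RNA extraction day. The gestational age, the dose of vesicles, the litter of each lung and the way the lungs were made hypoplastic were not stated in the labels. Nothing states whether the lungs of a group came from separate litters, so the p-values measure the spread between these samples.

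An imprinted gene is read mainly from the copy inherited from 1 parent, because DNA methylation set in the egg or the sperm marks the copies differently. Many paternally expressed genes promote fetal growth and many maternally expressed genes restrain it, and several are high in fetal organs and decline after birth. Dlk1, Peg3, Mest, Plagl1, Ndn and Peg10 are paternally expressed in most tissues, and Meg3, Cdkn1c, Grb10 and Phlda2 maternally. These counts do not separate the alleles, so a level here is the sum over both copies.

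The promoters of Dlk1, Meg3 and Peg3 are shown because those 3 genes had the smallest unadjusted p-values of the set, a choice made after their values were seen, and because Dlk1 and Meg3 lie in 1 imprinted domain read from opposite parental copies. Each line gives the 250 bases before the annotated start, from RefSeq on the rat build GRCr8, on the plus strand. Capitals mark TGCCGC, the core of the site bound by ZFP57 (a zinc finger protein that keeps imprints methylated), GGGGCCCC, the core bound by PLAGL1, GGGCGG, the GC box, and TATAAA, the TATA box, each on either strand, so that a match on the minus strand reads as its reverse complement. The Dlk1 stretch is chr6:134192347-134192596, the Meg3 stretch chr6:134273806-134274055 and the Peg3 stretch chr1:76130744-76130993.
Dlk1: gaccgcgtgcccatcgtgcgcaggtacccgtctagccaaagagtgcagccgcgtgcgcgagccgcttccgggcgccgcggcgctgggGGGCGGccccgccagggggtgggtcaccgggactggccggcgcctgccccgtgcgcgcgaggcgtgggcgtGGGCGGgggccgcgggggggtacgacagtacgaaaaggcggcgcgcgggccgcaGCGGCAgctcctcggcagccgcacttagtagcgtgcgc
Meg3: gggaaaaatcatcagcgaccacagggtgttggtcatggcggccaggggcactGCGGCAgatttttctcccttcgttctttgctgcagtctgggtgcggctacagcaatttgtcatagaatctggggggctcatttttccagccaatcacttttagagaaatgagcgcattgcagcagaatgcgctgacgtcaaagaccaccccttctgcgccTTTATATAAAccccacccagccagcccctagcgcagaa
Peg3: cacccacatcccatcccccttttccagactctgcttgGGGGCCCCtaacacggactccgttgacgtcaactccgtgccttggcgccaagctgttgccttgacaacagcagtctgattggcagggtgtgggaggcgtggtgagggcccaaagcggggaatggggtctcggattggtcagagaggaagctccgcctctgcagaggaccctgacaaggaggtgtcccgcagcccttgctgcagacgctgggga

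RefSeq promoters were found for 9 of the 10 genes, Peg10 included, and the search ran from 250 bases before to 50 after the start. The ZFP57 core was present in the promoters of Dlk1, Meg3, Grb10, Plagl1 and Peg10, against 11.7% of 33469 rat promoters of the same length. Peg3 alone among the 9 held the PLAGL1 octamer, which was in 0.858% of all promoters. The GC box was in the promoters of Dlk1, Mest, Grb10, Plagl1, Ndn, Peg10 and Phlda2 and in 33.1% of all. Meg3 alone held the TATA box (14.2% of all promoters), as 2 matches on opposite strands that overlapped each other. Of the 5 GC boxes of Grb10, those starting 52 and 48 bases before the start overlapped as well. Dlk1 had 45 CpG dinucleotides in its 300 bases and Grb10 had 44, more than 98.3% and 98.1% of promoters, while Meg3 had 13 and Ndn had 14 against a median of 7. These matches describe the letters only.

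The libraries held between 56922779 and 88243188 estimated counts, and levels are given as library-scaled CPM, a count relative to the total of its library. Summed lung epithelial markers ran from 2597 to 5119 CPM and summed lung mesenchymal markers from 1674 to 10845 CPM, so the defining markers of lung were present in every library. The epithelial sum was lower in every hypoplastic library (2597 to 2947 CPM) than in every control (3380 to 5119 CPM) and every treated library (3091 to 3539 CPM). Of the 8 epithelial markers, 6 were lower at an unadjusted p under 0.05 in edgeR in hypoplastic than in control lungs, with a median log2 difference of -0.60. At that p, 5.69% of all genes were lower and 6.67% higher. The mesenchymal markers had a median of 0.38 in that comparison, with 7 of 8 above 0, and the macrophage markers 0.89, with 5 of 5 above 0. Of the cardiac muscle markers, 5 of 6 were higher at that p. None of these markers was called. The part of these shifts in the levels of the imprinted genes was not tested. Control 2 had the lowest mesenchymal and macrophage sums and the highest epithelial and red blood cell sums. Its liver sum was also the highest, at 6.08 CPM, but Apoa1 alone held 5.65 CPM of that. No liver marker passed the filter on low counts. Hypoplastic 2 had the highest mesenchymal and macrophage sums. Cardiac muscle markers summed to 145 and 75.0 CPM in hypoplastic 1 and hypoplastic 2, and to between 2.64 and 10.9 CPM in the other 7 libraries. In whole lung, fewer cells of a type and less RNA per cell cannot be told apart.

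None of the 9 imprinted growth genes passed an adjusted p of 0.05 in any of the 3 comparisons in edgeR's quasi-likelihood test, nor under DESeq2 or limma voom. The background was low as well: edgeR called 0.00771% of all genes tested between hypoplastic and control lungs, 0% between treated and untreated hypoplastic lungs, and 0% between treated and control lungs. DESeq2 called more, 1.43%, 0.101% and 0.108% of 14853 genes in the same order, and limma voom 0.00771%, 0% and 0%. The widest differences were in Meg3 and Dlk1, both lower on average in hypoplastic than in control lungs. In that comparison the epithelial markers were lower too, and the mesenchymal and macrophage markers were higher by their medians. Peg3 had treated libraries that all lay below the hypoplastic ones, a comparison where 9.81% of all genes did not overlap in either direction. Ndn had hypoplastic libraries that all lay above the controls, where 16.7% of all genes did not overlap.

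**Figure D1:**
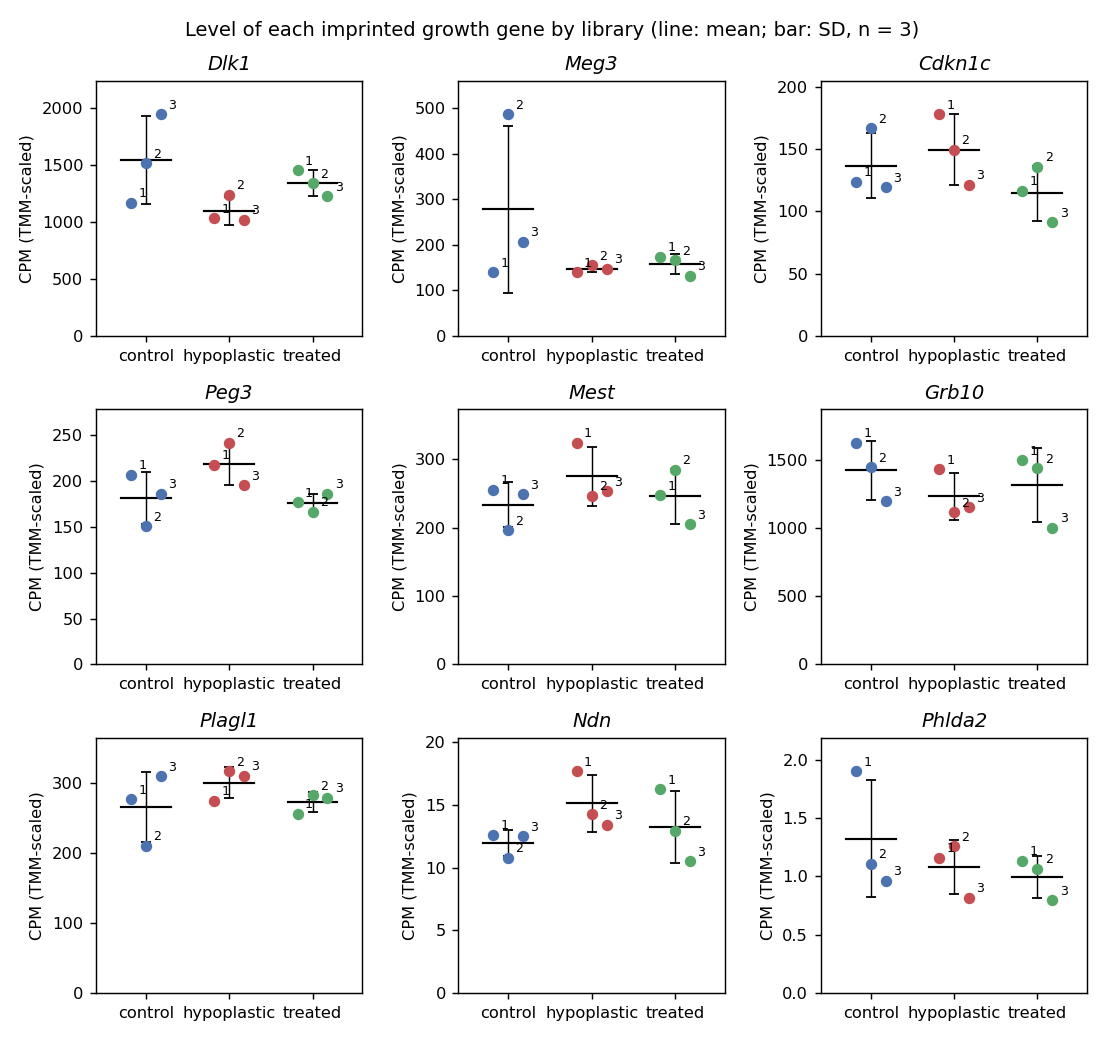
Level of each gene in CPM (y axis, from 0) in the 3 control, 3 hypoplastic and 3 treated libraries, numbered by replicate, with the group mean as a line and the SD as a bar. Meg3 in control 2 stands at 487 CPM while its other 8 libraries lie between 132 and 207 CPM.

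Dlk1 (Gene ID 114587) encodes a membrane-anchored protein related to the Notch ligands that holds precursor cells, such as preadipocytes, in an undifferentiated state. Its level was 1170.5, 1516 and 1946 CPM in the control libraries, 1034, 1239 and 1021 CPM in the hypoplastic libraries, and 1457, 1342 and 1227 CPM in the treated libraries. Control 2 and control 3 lay above every hypoplastic library, but control 1 lay below hypoplastic 2, so the groups overlapped. The group means were 1544 ± 389 CPM in control, 1098 ± 122 CPM in hypoplastic and 1342 ± 115 CPM in treated lungs (SD, n = 3 each).

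The log2 difference of Dlk1 was -0.49 (SE 0.188) in hypoplastic against control lungs, with an edgeR adjusted p of 0.366. Throughout, a difference is the group named first minus the group named after it, on the log2 scale. It was 0.29 (SE 0.188) in treated against hypoplastic lungs, with an edgeR adjusted p of 0.921. Against control the treated lungs stood at -0.20 (SE 0.188), with an edgeR adjusted p of 0.998. The Dlk1 values depended on control 3, the library with the highest level: without it the hypoplastic difference was -0.29 and the treated difference from control -0.00057. Without control 1, the lowest of the controls, these differences were -0.65 and -0.35.

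Meg3 (Gene ID 500717) is the long noncoding RNA made from the maternal copy of the same domain, and it is known as a growth-restraining transcript. It stood at 140.1, 487 and 207 CPM in control, 139, 155 and 148 CPM in hypoplastic, and 174, 166 and 132 CPM in treated libraries. Control 2 stood far above the other 8 libraries, and control 1 lay inside the range of the hypoplastic group. The means were 278 ± 184 CPM in control, 147 ± 7.71 CPM in hypoplastic and 157 ± 22.3 CPM in treated lungs (SD, n = 3 each), and the coefficient of variation was 66.1% among controls, 5.23% among hypoplastic lungs and 14.1% among treated lungs.

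Meg3 differed by -0.91 on the log2 scale (SE 0.368) between hypoplastic and control lungs, with an edgeR adjusted p of 0.374. Treated lungs stood at 0.09 (SE 0.365) against hypoplastic lungs, which became 0.017 without treated 1 and 0.21 without treated 3, and at -0.82 (SE 0.367) against controls, with edgeR adjusted p-values of 0.979 and 0.998. These Meg3 differences from control rested on control 2. Without that library they were -0.24 and -0.14, and without control 1 they were -1.23 and -1.12. Control 2 was also the library with the extreme marker sums given above, and the part of that in the Meg3 level was not tested.

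The cluster of microRNAs processed from the transcripts downstream of Meg3 had 58 rows in the table, of which 57 were at 0 in every library and the remaining one held 1 count in all. The libraries were made after ribosomal RNA depletion, and whether they captured microRNAs was not tested. The zeros therefore do not show that the cluster was silent. Begain, the tested neighbour on the far side of Dlk1, differed by 0.37 (SE 0.232) in hypoplastic against control lungs and by -0.24 (SE 0.229) in treated against hypoplastic lungs, the opposite signs to Dlk1 in both, with edgeR adjusted p-values of 0.529 and 0.942.

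Among the maternally expressed growth restrainers, Cdkn1c (Gene ID 246060) encodes p57, an inhibitor of cyclin-dependent kinases. Its level was 124, 167 and 119.6 CPM in control, 178, 149.5 and 121 CPM in hypoplastic, and 117, 136 and 91.5 CPM in treated libraries. The 3 groups overlapped, with treated 3 the lowest library and hypoplastic 1 the highest. The means were 137 ± 26, 149.6 ± 28.3 and 115 ± 22.2 CPM in control, hypoplastic and treated lungs (SD, n = 3 each).

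Cdkn1c differed by 0.13 (SE 0.193) on the log2 scale in hypoplastic against control lungs, with an edgeR adjusted p of 0.817. Between treated and hypoplastic lungs the difference was -0.38 (SE 0.193), the largest in size of the 9 genes in that comparison with all libraries, with an edgeR adjusted p of 0.901. It was -0.25 (SE 0.193) between treated and control lungs, with an edgeR adjusted p of 0.998. Without hypoplastic 1 the difference from control was -0.014, and without control 2 it was 0.30. The difference between treated and hypoplastic lungs was -0.24 without hypoplastic 1 and also -0.24 without treated 3. From control the treated lungs stood at -0.087 without control 2, -0.12 without treated 3 and -0.39 without treated 2. Hypoplastic 1 had the highest cardiac muscle sum as well, and the part of that in the Cdkn1c level was not tested.

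Grb10 (Gene ID 498416) encodes an adaptor that binds the insulin and IGF1 receptors and restrains their signal. It stood at 1629, 1451 and 1201 CPM in control, 1436, 1119 and 1154 CPM in hypoplastic, and 1502, 1443 and 1004 CPM in treated libraries. The 3 groups covered much the same range. The mean was 1427 ± 215 CPM in control, 1236 ± 174 CPM in hypoplastic and 1316 ± 272 CPM in treated lungs (SD, n = 3 each).

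Grb10 differed by -0.21 (SE 0.192) in hypoplastic against control lungs, by 0.09 (SE 0.192) in treated against hypoplastic lungs and by -0.12 (SE 0.192) in treated against control lungs, on the log2 scale. The edgeR adjusted p-values were 0.689, 0.969 and 0.998. The hypoplastic difference from control was -0.096 without control 1, -0.32 without control 3 and -0.33 without hypoplastic 1.

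Phlda2 (Gene ID 293637), which lies near Cdkn1c and restrains growth of the placenta, was the lowest of the 9 genes in counts, with 44.9 to 124 estimated counts per library. Counting error alone then ran from 8.98% to 14.9% of its level. It stood at 1.90, 1.11 and 0.963 CPM in control, 1.16, 1.26 and 0.814 CPM in hypoplastic, and 1.13, 1.06 and 0.793 CPM in treated libraries. Control 1 was the highest library and the groups overlapped. The means were 1.32 ± 0.505, 1.08 ± 0.233 and 0.996 ± 0.180 CPM in the same order of groups (SD, n = 3 each). The log2 difference was -0.29 (SE 0.329) between hypoplastic and control, -0.11 (SE 0.333) between treated and hypoplastic, and -0.40 (SE 0.324) between treated and control lungs, with edgeR adjusted p-values of 0.754, 0.979 and 0.998. Without control 1 the hypoplastic difference was 0.076, without hypoplastic 3 it was -0.13, and without control 3 it was -0.49. Without control 1 or treated 3 the treated difference from control was -0.027 or -0.27.

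Peg3 (Gene ID 103691034) encodes a paternally expressed zinc finger protein that regulates other genes and acts on fetal growth and maternal behaviour. It stood at 207, 151 and 186 CPM in control, 218, 242 and 195 CPM in hypoplastic, and 177, 166 and 186 CPM in treated libraries. Every treated library was below every hypoplastic library, while control 1 lay inside the hypoplastic range. The means were 181 ± 28.4, 218 ± 23.1 and 176 ± 9.89 CPM in control, hypoplastic and treated lungs (SD, n = 3 each).

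The log2 difference of Peg3 was -0.31 (SE 0.131) in treated against hypoplastic lungs, with an edgeR adjusted p of 0.895. Hypoplastic lungs stood 0.27 (SE 0.131) above control, with an edgeR adjusted p of 0.435, and treated lungs at -0.04 (SE 0.131) from control, with an edgeR adjusted p of 0.998. Leaving out any 1 library, the treated value stayed between -0.38 and -0.23, and the hypoplastic difference from control was 0.15 without control 2. An antisense gene, Apeg3, overlaps Peg3. No counts were found under its name, and whether it had a row of its own was not checked. The sources used here do not say whether the counting used strand, so reads from the antisense gene and Peg3 cannot be told apart.

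Mest (Gene ID 58827), a paternally expressed member of the alpha/beta hydrolase family named for its expression in mesoderm, stood at 255, 196 and 249 CPM in control, 324, 247 and 253 CPM in hypoplastic, and 247, 284 and 205 CPM in treated libraries. Hypoplastic 1 was the highest library and control 2 the lowest, and all groups overlapped. The Mest means were 233 ± 32.7, 275 ± 42.7 and 245 ± 39.5 CPM (SD, n = 3 each). The difference was 0.23 (SE 0.162) between hypoplastic and control, -0.16 (SE 0.162) between treated and hypoplastic, and 0.07 (SE 0.162) between treated and control lungs, with edgeR adjusted p-values of 0.574, 0.942 and 0.998. The hypoplastic difference was 0.099 without hypoplastic 1 and 0.12 without control 2. The treated difference from hypoplastic was -0.026 without hypoplastic 1, -0.048 without treated 3 and -0.28 without treated 2.

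Plagl1 (Gene ID 25157) encodes a zinc finger transcription factor that restrains the cell cycle and regulates other imprinted genes. Its level was 277, 211 and 310.2 CPM in control, 275, 318 and 311 CPM in hypoplastic, and 257, 283 and 279.6 CPM in treated libraries. Control 2 was the lowest library and the groups overlapped. The means were 266 ± 50.6, 301 ± 22.7 and 273 ± 14.3 CPM (SD, n = 3 each). Plagl1 had the smallest coefficient of variation over the 9 libraries of the set, 11.7%. It differed by 0.18 (SE 0.14) between hypoplastic and control, -0.14 (SE 0.14) between treated and hypoplastic, and 0.04 (SE 0.14) between treated and control lungs, with edgeR adjusted p-values of 0.63, 0.942 and 0.998. Without control 2 the hypoplastic difference was 0.035, and it was 0.30 without control 3.

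Ndn (Gene ID 308690) encodes necdin, a MAGE family protein that holds back cell growth and is paternally expressed. It stood at 12.6, 10.8 and 12.5 CPM in control, 17.7, 14.3 and 13.4 CPM in hypoplastic, and 16.3, 12.9 and 10.5 CPM in treated libraries. All hypoplastic libraries lay above all control libraries, with means of 15.1 ± 2.26 CPM and 12.0 ± 1.04 CPM, and treated lungs averaged 13.2 ± 2.89 CPM (SD, n = 3 each). The difference was 0.34 (SE 0.183) between hypoplastic and control, -0.19 (SE 0.183) between treated and hypoplastic, and 0.14 (SE 0.183) between treated and control lungs, with edgeR adjusted p-values of 0.478, 0.942 and 0.998. The treated difference from hypoplastic was -0.063 without hypoplastic 1, -0.051 without treated 3 and -0.37 without treated 1. The hypoplastic value was 0.21 without hypoplastic 1, the library with the highest cardiac muscle sum, and the part of that in the Ndn level was not tested.

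**Figure D2:**
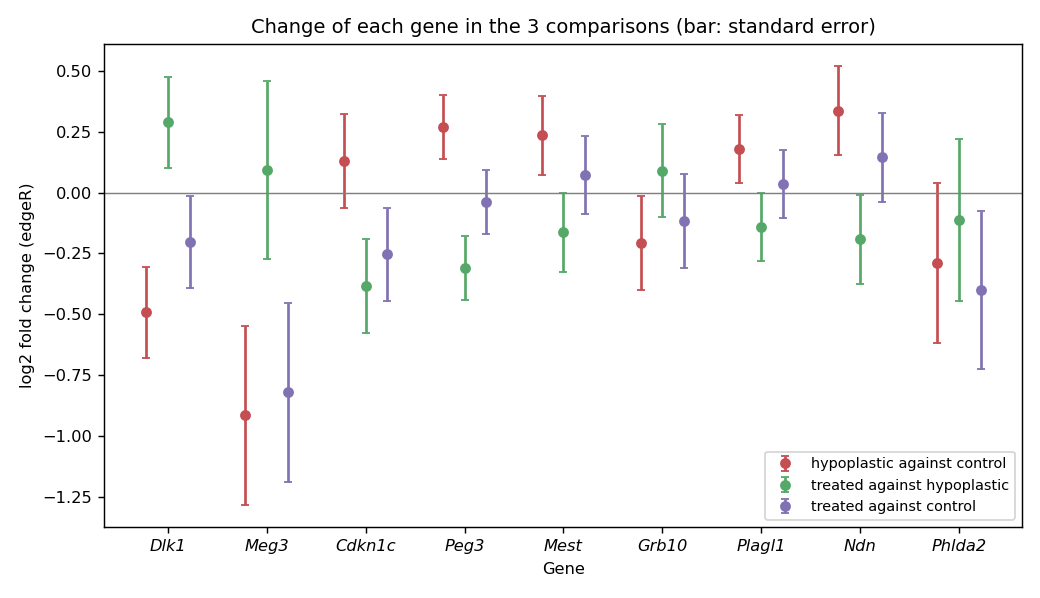
log2 fold change of each gene (edgeR, y axis) for each of the 3 comparisons between groups, with the standard error as a bar. Meg3 has the widest bars and lies at -0.91 and -0.82 against control, and Peg3 lies at -0.31 in treated against hypoplastic lungs.

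At an unadjusted p under 0.05 in edgeR, 2 of the 9 genes (22.2%) differed between hypoplastic and control lungs, Dlk1 and Meg3, both lower, where 12.4% of all genes passed, 6.67% higher and 5.69% lower. Between treated and hypoplastic lungs, 1 of 9 genes (11.1%), Peg3, was lower, where 5.56% of all genes passed, 2% higher and 3.56% lower. Between treated and control lungs 0 of 9 passed, where 4.17% of all genes passed, 1.67% higher and 2.5% lower. These shares rest on at most 2 genes.

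Libraries of the groups did not overlap for 1 of the 9 genes between hypoplastic and control lungs (Ndn, higher), where 16.7% of all genes did not overlap, 7.68% higher and 9.05% lower. They did not overlap for 1 gene between treated and hypoplastic lungs (Peg3, lower), against 9.81% of all genes, 5.07% higher and 4.74% lower. Between treated and control lungs there was no such gene among the 9, against 9.39% of all genes, 4.37% higher and 5.02% lower. The median log2 difference of the 9 genes was 0.13 between hypoplastic and control, -0.14 between treated and hypoplastic, and -0.12 between treated and control lungs, beside 0.01, -0.01 and 0.00 for all genes. The genes with values above 0 numbered 5, 3 and 3 of 9 in these comparisons.

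The paternally expressed genes tested (5 of 6) had values above 0 for 4 genes and below 0 for Dlk1 in hypoplastic against control lungs, with a median of 0.23. The 4 maternally expressed genes had Cdkn1c above 0 and the other 3 below it, with a median of -0.25. In treated against hypoplastic lungs the paternally expressed genes had Dlk1 above 0 and the other 4 below it (median -0.16), and the maternally expressed genes had Meg3 and Grb10 above 0 and Cdkn1c and Phlda2 below it (median -0.01). Against control, all 4 maternally expressed genes were below 0 in treated lungs, with a median of -0.33, and 3 of the 5 paternally expressed genes were above 0, with a median of 0.04. The comparisons share libraries, so their values stand side by side and are not independent.

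**Figure D3:**
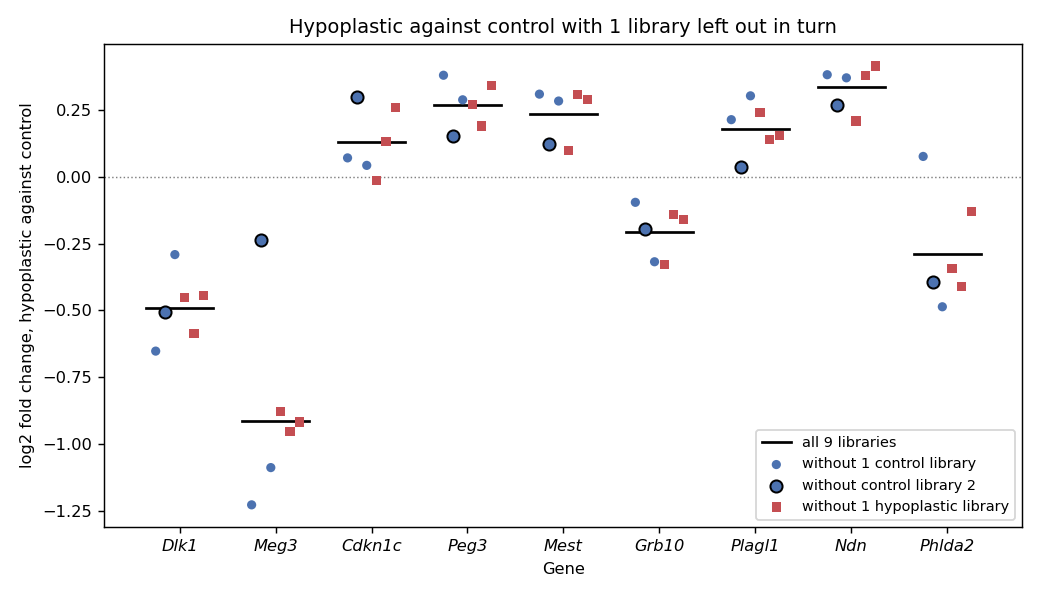
log2 fold change of each gene in hypoplastic against control lungs (edgeR, y axis) with all 9 libraries (line) and without 1 control (circle) or hypoplastic (square) library at a time, control library 2 with a black edge. Meg3 runs from -1.23 to -0.24, and Cdkn1c and Phlda2 change sign when hypoplastic 1 or control 1 is left out.

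The 9 genes differed in how far they spread, from Plagl1 at the bottom to Meg3 at the top. The median coefficient of variation over the 9 libraries was 17.5% for the 9 genes and 15.9% for all genes tested, and within groups 16.9% and 15.5%. Of the 9 genes, 4 were below the median of all genes in the spread over the 9 libraries.

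Across the 9 libraries, 36 pairs of the genes were compared by Pearson's r and Spearman's rho of log2 CPM. None passed an adjusted p of 0.05, the smallest being 0.387 for r and 0.298 for rho over the 36 pairs, and 4 had an unadjusted exact permutation p under 0.05 for r. Mest and Ndn had r = 0.79 (exact permutation p = 0.0117, adjusted p = 0.387) and rho = 0.53 (exact permutation p = 0.148, adjusted p = 0.75), and r was 0.49 without the 2 libraries farthest from the median of Mest. Grb10 and Phlda2 had r = 0.71 (exact permutation p = 0.0241, adjusted p = 0.387) and rho = 0.55 (exact permutation p = 0.133, adjusted p = 0.75), and r was 0.85 without the 2 libraries farthest from the median of Grb10.

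Dlk1 and Meg3, the pair from 1 domain, had r = 0.55 (exact permutation p = 0.133, adjusted p = 0.637) and rho = 0.83 (exact permutation p = 0.0083, adjusted p = 0.298). The r was 0.68 without the 2 libraries farthest from the median of Dlk1, 0.88 without control 2 and 0.36 on deviations from the group means. Leaving out control 2 alone was not planned before the values were seen. It also took r of Cdkn1c and Mest, genes of different regions, from 0.38 to 0.89. Peg3 and Plagl1, where the PLAGL1 core was found in the Peg3 promoter, had r = 0.69 (exact permutation p = 0.0378, adjusted p = 0.387) and rho = 0.47 (exact permutation p = 0.213, adjusted p = 0.75). That r was 0.073 without the 2 farthest libraries, hypoplastic 2 and control 2, so the relation rests on them. Meg3 and Peg3 had r = -0.68 (exact permutation p = 0.0430, adjusted p = 0.387) and rho = -0.67 (exact permutation p = 0.0589, adjusted p = 0.53), and r was -0.39 without control 2 and control 3. Meg3 and Plagl1 had r = -0.74 (exact permutation p = 0.0776, adjusted p = 0.559) and rho = -0.17 (exact permutation p = 0.678, adjusted p = 0.873), and r was 0.22 without control 2.

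**Figure D4:**
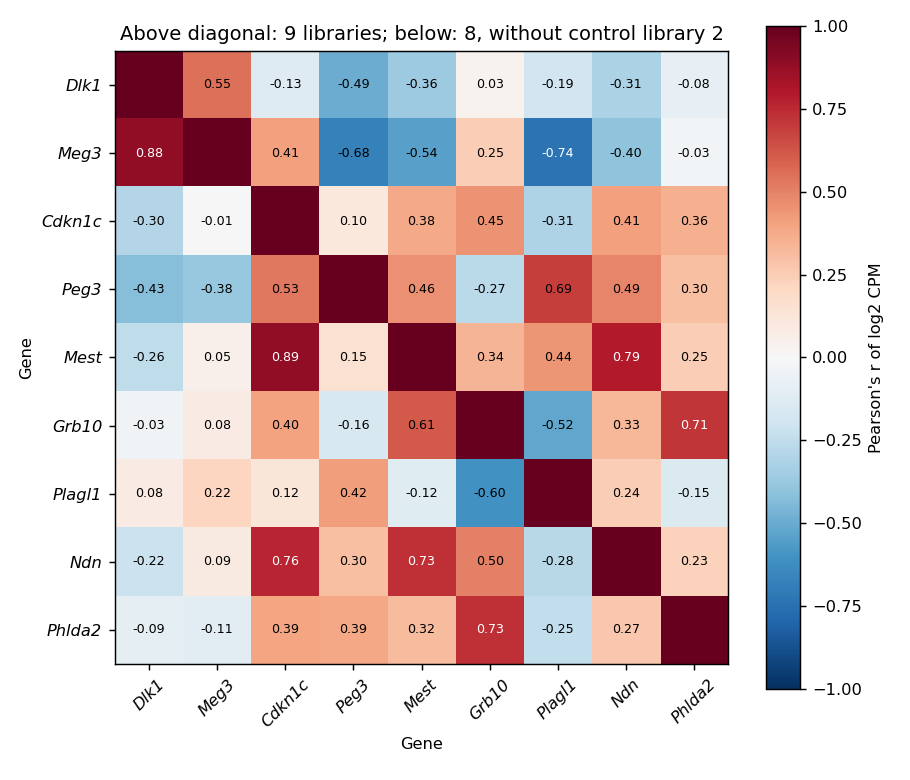
Pearson's r of log2 CPM for each pair of genes, above the diagonal over 9 libraries and below it over 8 libraries without control 2, with blue for negative and red for positive values. Dlk1 and Meg3 read 0.55 above and 0.88 below, Cdkn1c and Mest 0.38 and 0.89, and Meg3 and Plagl1 -0.74 and 0.22.

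For each gene, the 2 genes most like it by Pearson's r of log2 CPM over the 9 libraries were taken from 11343 genes with a mean of at least 1 CPM. These values describe the 9 libraries and were not tested. They are the highest of a search, so their size is no support for a relation. Without the 2 libraries farthest from the median of each gene, r ran from 0.54 (Meg3 and Rab27a) to 0.98 (Mest and Pigx). For Meg3 the most similar genes were Kif16b (0.98) and Rab27a (0.97), and r for them was 0.83 and 0.54 without the 2 farthest libraries. For Dlk1 they were Zswim5 (0.88) and Frk (0.88), for Cdkn1c Copz2 (0.94) and C8h11orf71 (0.93), for Peg3 F13a1 (0.95) and Aldh1a3 (0.95), and for Mest Pigx (0.99) and Cldn9 (0.97). Grb10 was closest to Gldn (0.98) and Haus7 (0.97), Plagl1 to Rnf138 (0.98) and Pelo (0.97), Ndn to Fh (0.93) and Sec61a2 (0.90), and Phlda2 to Gss (0.86) and Ptpra (0.85).

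Other genes listed with this network of imprinted genes were Igf2, H19, Igf2r, Gnas, Dcn, Sgce, Slc38a4, Gatm and Nnat. Whether each is imprinted in fetal rat lung was not tested. At an unadjusted p under 0.05 in edgeR, 4 of 9 were higher in hypoplastic than in control lungs and none lower. Their median was 0.57, and 12.4% of all genes passed that p. In treated against hypoplastic lungs 4 of the 9 were lower, with a median of -0.39, beside 5.56%. Against control, 1 of 9 was higher in treated lungs, beside 4.17% of all genes, 1.67% higher. No gene of this group passed an adjusted p of 0.05 in edgeR. Gatm, which makes the precursor of creatine, had 0.80 (SE 0.154, unadjusted p = 4.536e-04) in hypoplastic against control lungs, with an edgeR adjusted p of 0.31. Dcn, which encodes the matrix proteoglycan decorin, had -3.59 (SE 1.16, unadjusted p = 0.0117) in treated against hypoplastic lungs, with an edgeR adjusted p of 0.859. Its level was 147 CPM in hypoplastic 2, the library with the highest mesenchymal and macrophage sums, 13.3 and 1.97 CPM in the other hypoplastic libraries and 3.99 to 4.82 CPM in the treated libraries, and the part of those sums was not tested. Igf2, the fetal growth factor, stood at 3427, 2260.2 and 2809 CPM in control, 5203, 4670.1 and 4760.4 CPM in hypoplastic, and 2516, 3399.6 and 2567 CPM in treated libraries, with differences of 0.78 (adjusted p = 0.317 in edgeR) and -0.79 (adjusted p = 0.826 in edgeR). H19, the noncoding RNA beside it, differed by 0.84 and -0.53 in the same 2 comparisons. The 9 growth genes described here had medians of 0.13 and -0.14 in those comparisons.

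Among 23 tested genes of the regions around the 10 genes, of which Snrpn and Ube3a lie several megabases from Ndn in the RefSeq table, 2 were higher and 2 lower at an unadjusted p under 0.05 between hypoplastic and control lungs (17.4%, beside 12.4% of all genes), with a median of -0.08. In treated against hypoplastic lungs 0 were higher and 1 lower, beside 5.56% of all genes, and none passed an adjusted p of 0.05 in edgeR. Near Cdkn1c and Phlda2, the lipid transfer gene Osbpl5 differed by -0.65 (SE 0.17, adjusted p = 0.317 in edgeR) and the potassium channel gene Kcnq1 by -0.51 (SE 0.152, adjusted p = 0.317 in edgeR) in hypoplastic against control lungs. All control libraries of Osbpl5 (50.8 to 85.7 CPM) lay above the hypoplastic ones (39.7 to 44.1 CPM), where 16.7% of all genes did not overlap. Beside Peg3, Zim1 differed by -1.82 (SE 0.638, adjusted p = 0.89 in edgeR) in treated against hypoplastic lungs, from 6.04 and 5.68 CPM in hypoplastic 1 and hypoplastic 2, 0.869 CPM in hypoplastic 3, and 0.671, 1.12 and 1.82 CPM in treated libraries, and its groups overlapped. The 2 libraries with high Zim1 were those with high cardiac muscle sums (145 and 75.0 CPM, against 2.99 CPM in hypoplastic 3), and the part of that in the Zim1 level was not tested. Peg3 differed by -0.31 in the same comparison. Usp29, the other neighbour of Peg3, differed by -0.92 (SE 0.467, adjusted p = 0.901 in edgeR). Slc22a18 and Osbpl5 differed by -0.47 and -0.44 in treated against control lungs, each with an edgeR adjusted p of 0.998.

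**Figure D5:**
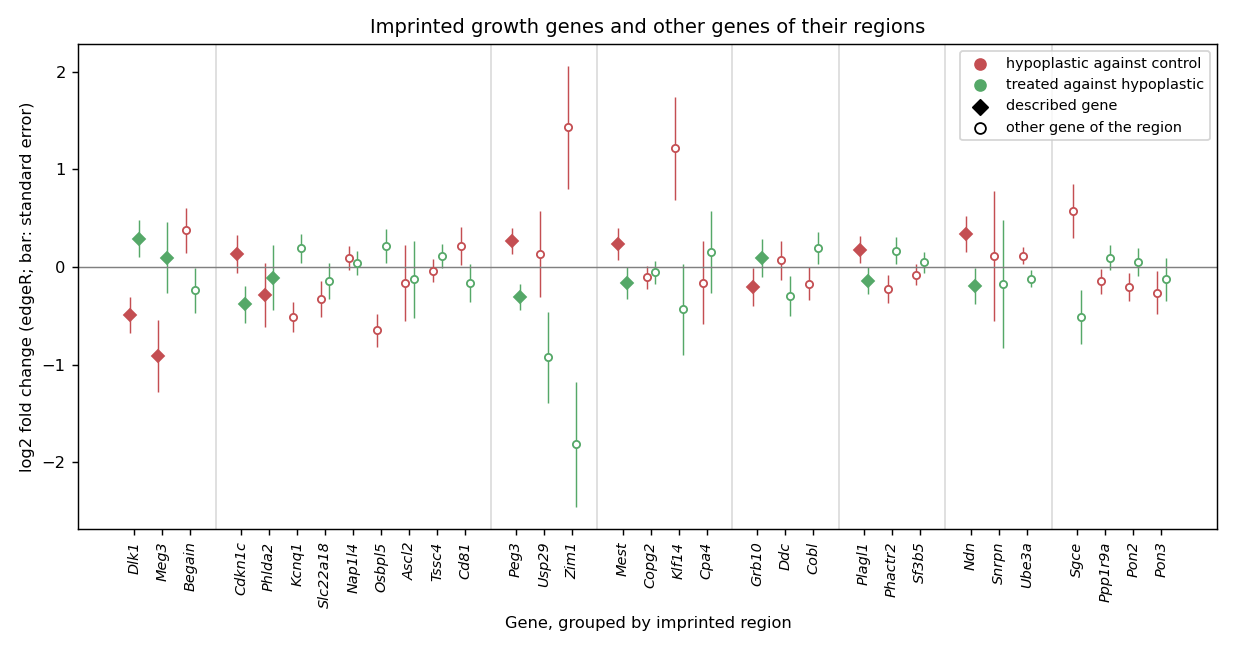
log2 fold change (edgeR, y axis; bar: standard error) of the described genes (filled diamonds) and the other tested genes of their regions (open circles), grouped by region, in hypoplastic against control and treated against hypoplastic lungs. Zim1 is lowest at -1.82 in treated against hypoplastic lungs while Peg3 beside it is at -0.31.

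Genes of insulin and IGF signalling and of the cell cycle control on which Grb10 and Cdkn1c act (20 of 20 tested) had 2 higher and 0 lower in hypoplastic against control lungs at an unadjusted p under 0.05 (10%, beside 12.4% of all genes), with a median of 0.02, and 1 lower (5%) in each of the other 2 comparisons, beside 5.56% of all genes between treated and hypoplastic lungs and 4.17% between treated and control lungs. Cdkn1a, which encodes p21, another cyclin-dependent kinase inhibitor, stood at 53.4, 39.7 and 66.1 CPM in control and 67.1, 115 and 117 CPM in hypoplastic libraries, a difference of 0.91 (SE 0.245, adjusted p = 0.317 in edgeR) with no overlap, against 0.13 for Cdkn1c. Igf1r, the receptor of IGF1, differed by 0.50 (SE 0.208, adjusted p = 0.384 in edgeR) with overlap, and Insr, the insulin receptor, by -0.25 (SE 0.104, adjusted p = 0.895 in edgeR) in treated against hypoplastic lungs and by -0.32 (SE 0.104, adjusted p = 0.998 in edgeR) in treated against control lungs, where every treated library lay below every library of the group it was compared with. Ccnd2, a D-type cyclin, differed by -0.22 (SE 0.123, adjusted p = 0.998 in edgeR) in treated against control lungs. Of all genes, 16.7% did not overlap between hypoplastic and control lungs. That share was 9.81% between treated and hypoplastic lungs and 9.39% between treated and control lungs.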

How the data were processed

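RNA from 9 fetal rat lungs was sequenced after ribosomal RNA depletion, per the labels' protocols. The authors deposited 1 table of estimated counts per gene, not normalized, with fractions of a count. The submitters' processing notes name the build rn7 and DESeq2, and what aligned and counted the reads, and on which annotation, is not given in the sources used here. Columns were matched to samples by name.

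Values were rounded to integers before any test, although counts had been planned for, and symbols were found for 17314 of 17465 Gene IDs. CPM values used edgeR's TMM factors. The quasi-likelihood test of edgeR 4.0.16 (R 4.3.3, limma 3.58.1) was fitted to all 9 libraries with a term per group, leaving 6 residual degrees of freedom, after filterByExpr left 12966 genes. Benjamini-Hochberg adjustment ran over all 12966 genes and calls were made below 0.05. Ribosomal and 7SL rows took 14.1% to 19.9% of counts. Replicates differed beyond sampling noise (smallest chi-square per degree of freedom 132). The test was tested on simulated data. Alternatives included DESeq2 1.42.0 and limma voom.

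The 10 genes and all lists were chosen with earlier results of these data known. All 10 genes were named, with, for each other list and comparison, the 2 genes of smallest unadjusted p where none was called, and Igf2 and H19. Promoters come from RefSeq (GRCr8), which differs from the build of the counts, so the promoters were matched by symbol alone. Cdkn1c has no promoter shown.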

Additional observations from a re-analysis of the deposited data

How the results depend on the processing

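The 9 genes gave 27 results over the 3 comparisons, each under 19 alternatives. None of them was called under any alternative, and 18 of 513 values reversed in sign, in 10 results. The count of called genes between hypoplastic and control lungs was 1, and became 212 under DESeq2, 2 with the replicate block, 4 with only the 6 libraries compared, 2 without control 2 and hypoplastic 2 (an alternative chosen after seeing the data), and 0 to 45 with 1 library left out. Between treated and hypoplastic lungs it was 0, and became 15 under DESeq2 and 0 to 44 with 1 library left out. Between treated and control lungs it was 0, and became 16 under DESeq2, 1 without control 2 and hypoplastic 2, and 0 to 1 with 1 library left out. The cause was not tested. The median difference of the 9 genes ranged from -0.014 to 0.15, from -0.22 to -0.048 and from -0.22 to 0.0052 in these comparisons with 1 library left out. Reversals outside leaving out 1 library were Plagl1 at -0.0033 in hypoplastic against control, Plagl1 at -0.11, Mest at -0.039 in treated against control and Phlda2 at 0.0099 in treated against hypoplastic lungs, all without control 2 and hypoplastic 2, and Mest at -0.011 in treated against control lungs with a covariate for sex, which was read from the transcripts. By those transcripts, 2 control lungs were male and 1 female, against 1 male and 2 female in the hypoplastic group and in the treated group. With that covariate the median difference of the 9 genes in hypoplastic against control lungs was 0.039. Cdkn1c stood at 0.039, Ndn at 0.24 and Dlk1 at -0.57 there. With 1 library left out, values ran from -0.014 to 0.30 for Cdkn1c and -0.49 to 0.076 for Phlda2 in hypoplastic against control lungs, from -0.014 to 0.25 for Grb10 and -0.27 to 0.022 for Phlda2 in treated against hypoplastic lungs, and in treated against control lungs from -0.23 to 0.046 for Grb10, -0.046 to 0.19 for Mest, -0.029 to 0.29 for Ndn, -0.16 to 0.081 for Peg3 and -0.11 to 0.16 for Plagl1. The replicate numbers pair no samples by the labels, and same-numbered libraries had correlations of -0.28 to 0.23, with 3 of 9 over 0.1. Differently numbered libraries had correlations of -0.44 to 0.39, with 7 of 18 over 0.1. Apart from the count of 2 above, the replicate block changed no call of the 9 genes. Counting error limits Phlda2 most, at 8.98% to 14.9%.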

Other observations

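Genes of cell division (Mki67, Top2a, Pcna, Ccnb1, Cdk1, Ccna2, Mcm2, Mcm5, Bub1 and Aurkb) gave 0 of 10 at an unadjusted p under 0.05 in edgeR in each of the 3 comparisons, and 0 called by edgeR. The shares of all genes at that p were 12.4%, 5.56% and 4.17%. Their median log2 difference was 0.03 between hypoplastic and control, 0.07 between treated and hypoplastic and 0.11 between treated and control lungs, where all 10 values were above 0. Their summed levels overlapped between the groups, at 1261 to 1534 CPM in control, 1168 to 1699 CPM in hypoplastic and 1175 to 1722 CPM in treated libraries. In the same libraries the cell cycle inhibitor Cdkn1c had differences of 0.13, -0.38 and -0.25. Treated 3, the lowest library for Cdkn1c at 91.5 CPM, had a sum of 1175 CPM. A relation between the sums and Cdkn1c was not tested.

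Sgce, 1 of 4 tested genes near Peg10, stood at 18.6, 9.90 and 22 CPM in control, 23.1, 29.4 and 22.6 CPM in hypoplastic, and 14.1, 16.8 and 21.8 CPM in treated libraries. It was chosen after its values were seen. Every hypoplastic library lay above every control and every treated library. Of all genes, 16.7% did not overlap between hypoplastic and control lungs, and 9.81% between treated and hypoplastic lungs. The log2 difference was 0.57 (SE 0.276) in hypoplastic against control and -0.51 (SE 0.275) in treated against hypoplastic lungs, with edgeR adjusted p-values of 0.43 and 0.901. The other 3 genes had values below 0 in hypoplastic against control lungs, -0.15 for Ppp1r9a, -0.21 for Pon2 and -0.26 for Pon3, with edgeR adjusted p-values of 0.671, 0.588 and 0.653.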
